A study of Mus musculus with 10 samples.

Results

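Methylation was read at 10 mast cell and IgE receptor genes in whole lung of BALB/c mice: Kit, Kitl, Fcer1a, Ms4a2, Fcer1g, Hdc, Cpa3, Cma1, Tpsb2 and Mitf. The genes were chosen by name, but with earlier results of these data known. The study had already named Kit as a hub gene, in part from its methylation in these mice. The shares given below are thus not those of a set chosen blind to the data. Their windows are those of the methylation table that overlap the RefSeq span of a gene (mouse build GRCm38, the mm10 of the files) extended by 5 kb on each side, which took 180 of 446336 windows. Each window is 1000 bp long and starts 500 bp after the window before it, so neighbours share calls. The assay was Methyl-seq, in which regions captured with SureSelect baits are treated with bisulfite and sequenced, and the methylation level is 100 × methylated calls / all CpG calls of the window.

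There were 3 groups. Saline-treated mice (n = 3) were controls, OVA-induced mice (n = 3) were sensitised and then challenged through the nose with ovalbumin (OVA) as a model of allergic asthma, and DSE-treated mice (n = 4), labelled Herb, received the same OVA exposure and by mouth an ethanol extract of Descurainia sophia seeds (DSE). All were female BALB/c mice bought at 8 weeks of age, per the study's methods, and no group received DSE without OVA. The material was whole lung, of which mast cells are a minor part, so a level is an average over all lung cells, and a change of the cell mixture cannot be told apart from a change of methylation within a cell type.

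Mast cells develop under the receptor tyrosine kinase Kit and its ligand, stem cell factor, which Kitl encodes. They bind IgE through the high-affinity receptor FcεRI, built from an alpha chain (Fcer1a) that holds IgE, a beta chain (Ms4a2) that amplifies the signal and a gamma chain (Fcer1g) that many other leukocytes also use. When antigen links IgE on their surface, they release histamine, made by histidine decarboxylase (Hdc), and granule proteases such as carboxypeptidase A3 (Cpa3), chymase (Cma1) and the tryptase Tpsb2. The transcription factor Mitf is needed for mast cell differentiation and for the use of several of these genes.

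The windows spread unevenly over the genes. Kit held 47, Mitf 49, Hdc 25, Kitl 20, Ms4a2 12, Fcer1g 8, Fcer1a 7, Cpa3 6, and Cma1 and Tpsb2 3 each. In the deposited table each mouse had at least 10 calls in every window. Summed over these 180 windows a mouse had between 114865 and 162282 calls, where a call in overlapping windows counts more than once. A test used the mice with at least 20 calls, which left 177 windows, and 176 windows had 20 calls in all 10 mice. At a level of 50% the 95% Wilson interval runs from 29.9% to 70.1% at 20 calls and from 45.3% to 54.7% at 440 calls, for counting error only. All 8 Fcer1g windows lie in the flanks and overlap neighbouring genes, none of the Tpsb2 windows lies in Tpsb2 itself, and the 6 Cpa3 windows also overlap the predicted gene Gm31320.

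In OVA vs. saline, methylation was gained mostly in the bodies of Kit and Kitl, downstream of the chymase gene Cma1 and in introns of Mitf. It was lost in windows that overlap coding exons of Hdc, with the introns between them, and in parts of Kit introns. A differentially methylated region (DMR) was a window with an adjusted p under 0.01 in a likelihood ratio test of the pooled calls, which takes calls as independent, with the pooled levels at least 10 points apart. Of the 177 windows tested, 19 (10.7%) were hyper methylated in OVA vs. saline, where 4.75% of all windows were, and 5 (2.82%) were hypo methylated, where 2.56% of all were. The hyper methylated windows fell on Kit (9), Kitl (4), Mitf (3), Cma1 (2) and Hdc (1), and the hypo methylated ones on Kit (2), Hdc (2) and Ms4a2 (1). The median difference was 2.28 points over the tested windows of these genes and 0.753 points over all windows.

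In DSE vs. OVA no window of the 10 genes was hyper methylated, against 0.898% of all windows. Hypo methylated were 8 windows (4.52%), against 0.725% of all windows: 4 of Mitf, 2 of Kit and 1 each of Fcer1a and Hdc. The median difference was -0.414 points, beside -0.0381 points over all windows. In DSE vs. saline 15 windows (8.47%) were hyper methylated and 11 (6.21%) were hypo methylated, where 4.95% and 3.07% of all windows were. DSE vs. OVA and OVA vs. saline share the OVA-induced mice, and DSE vs. saline shares mice with both, so the 3 counts are not independent of each other.

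With the mouse as the unit the counts were smaller. The limma model on M-values (the log2 ratio of methylated to unmethylated calls) called 11 windows in OVA vs. saline (6.21%, where 3.2% of all windows were called), 1 for DSE vs. OVA (0.565%, all windows 0.382%) and 18 in DSE vs. saline (10.2%, all windows 6.59%), at an adjusted p under 0.05. An F test that scales the calls by how much the mice scatter called 0 windows in each comparison at the 10 genes. On simulated windows for OVA vs. saline it recovered 0% of planted changes of 25 points. A count of 0 by this test therefore cannot tell whether these windows changed. Full separation of the mice of the groups compared was found in 54 of the 176 windows in OVA vs. saline (30.7%, all windows 27%), in 21 for DSE vs. OVA (11.9%, all windows 10.3%) and in 60 for DSE vs. saline (34.1%, all windows 24.3%). The exact two-sided permutation test over mice cannot give a p below 0.1 for 3 against 3 mice or below 0.0571 for 3 against 4, so no single window could pass 0.05 by it. The plot of every window's difference shows the share of each gene in these counts.

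**Figure D1:**
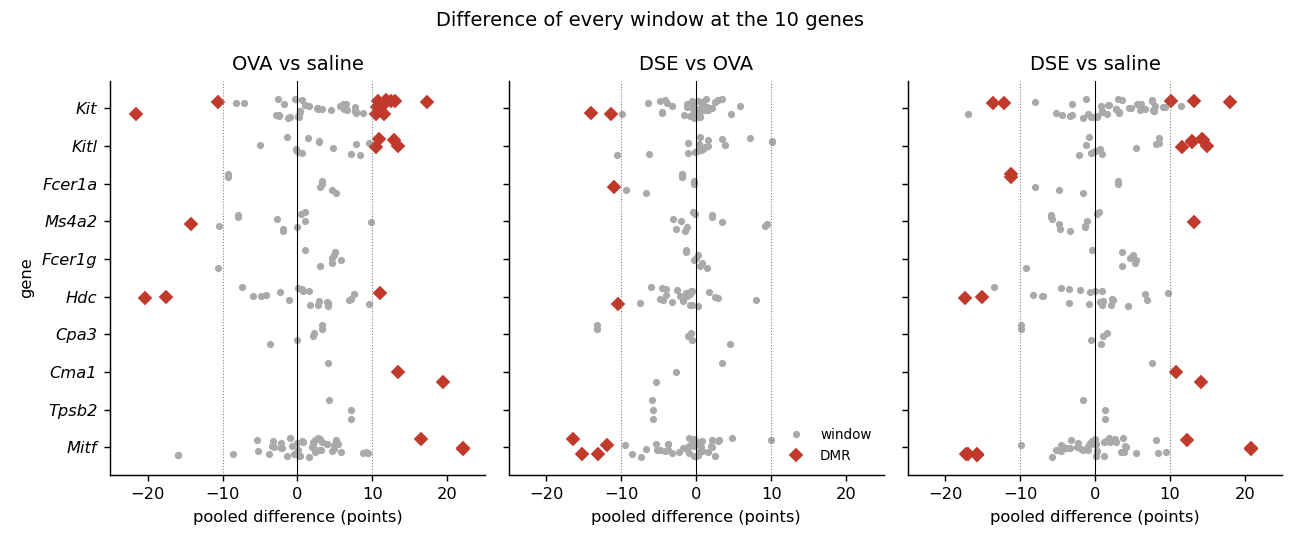
Pooled difference in methylation (percentage points) of 176 windows in which all 10 mice had 20 calls or more, by gene and comparison, with DMRs as red diamonds and other windows as grey dots (dotted lines: 10 points). DMRs of OVA vs. saline lie mostly to the right at Kit, Kitl, Cma1 and Mitf, and all 8 DMRs of DSE vs. OVA lie to the left.

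The start-site levels of the genes stand here beside the CpG density of their promoters. RefSeq promoters of 300 bases (250 before the start site and 50 after it) were matched for 9 of the 10 genes, all but Tpsb2. The Kitl promoter holds 28 CpG sites, that of the longest Mitf transcript 22 and that of Kit 20, counts reached by 14.2%, 23.1% and 26.5% of the 32851 promoters in the table. The other Mitf promoters in it hold 5 and 8 CpG sites, and another Kit promoter, offset by a few bases, holds 21. At the start-site window of these genes the level was near 1% in every group: in Kit 1.59% in saline-treated, 1.61% in OVA-induced mice and 1.53% in those treated with DSE, in Kitl 1.01%, 0.933% and 1.04% and in Mitf 0.807%, 1.24% and 0.956%. The Fcer1a promoter holds 1 CpG site, and Hdc, Cpa3 and Cma1 hold 3 each. At the window of the Fcer1a start site the level was 56.1% ± 5.05 (SD, n = 3) in saline-treated mice, and at that of Hdc it was 19.1% ± 4.89 (SD, n = 3).

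The whole Kit locus was read from the promoter to the 3' flank. Kit (chr5:75574987-75656722, plus strand) had an unmethylated promoter, a steep rise of the level over the beginning of intron 1 and high levels in the body of the gene. Over the 5 windows within 1000 bp of the start site the mean was 4.73% ± 0.252 (SD, n = 3) in saline-treated, 4.31% ± 0.0554 (SD, n = 3) in OVA-induced and 4.39% ± 0.321 (SD, n = 4) in DSE-treated mice, and none of these windows was a DMR. In saline-treated mice the window centred 1514 bp after the start site had 12.8%, the window at 2514 bp had 37.3%, and the 19 windows of intron 1 averaged 57.5% ± 1.1 (SD, n = 3). As an average over its windows, the highest part was exon 7, whose single window had 91.3% ± 1.33 (SD, n = 3). A window of intron 7, at chr5:75624501-75625500, was higher at 96.0% ± 1.78 (SD, n = 3), with 88 to 253 calls per mouse. The 3 windows that overlap exon 10 were far lower at 44.8% ± 2.96 (SD, n = 3). The 250 bases before the Kit start site are shown because their 17 CpG sites, in capitals, lie in 2 windows that had 6.1% to 7.5% and 1.2% to 2.2% over all 10 mice (chr5:75574737-75574986, plus strand, GRCm38).
Kit promoter: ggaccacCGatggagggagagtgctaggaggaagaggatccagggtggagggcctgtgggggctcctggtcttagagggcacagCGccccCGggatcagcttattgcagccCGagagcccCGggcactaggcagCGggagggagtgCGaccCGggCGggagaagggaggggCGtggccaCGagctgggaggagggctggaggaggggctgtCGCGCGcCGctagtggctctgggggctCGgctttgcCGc

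**Figure D2:**
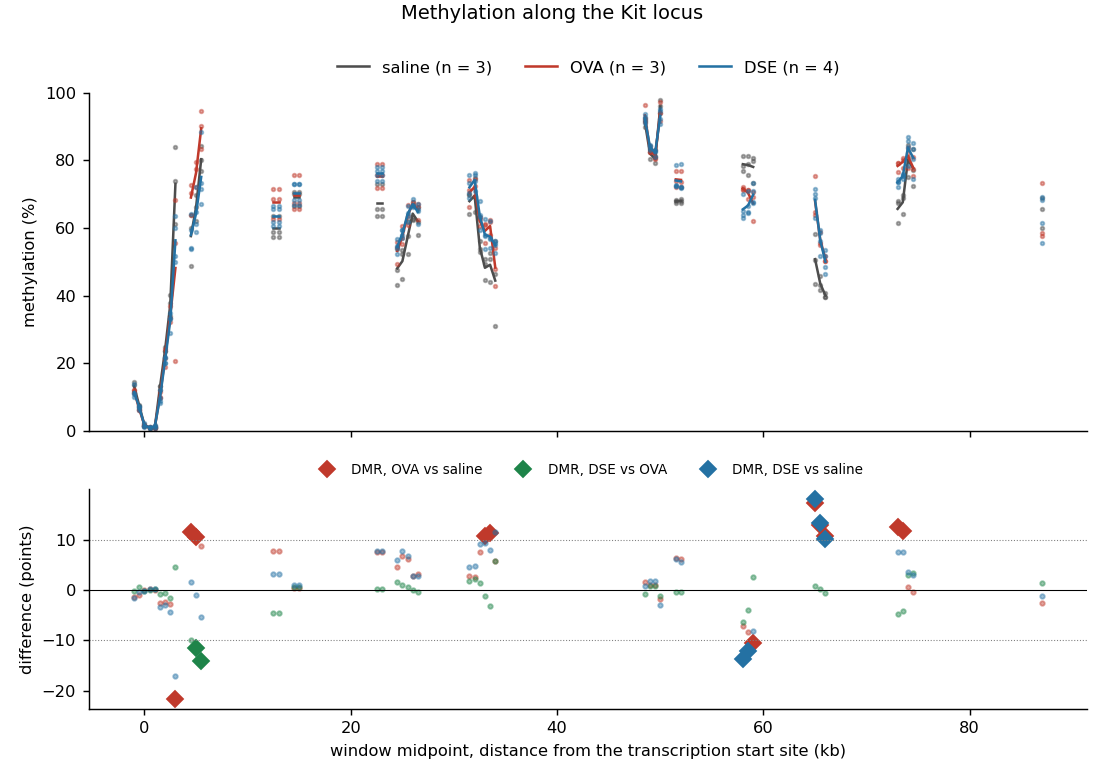
Methylation (%) along the Kit locus by distance of the window midpoint from the transcription start site (kb) in the 46 windows in which all mice had 20 calls or more: dots are mice and lines group means in the upper panel, and the lower panel gives pooled differences in percentage points, with DMRs as diamonds. The groups run together through the promoter and part at 5 kb, 33 kb, 58 kb, 65 kb and 73 kb.

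In the windows that overlap exon 10, which encodes the membrane-spanning part of the receptor, both OVA-exposed groups had more methylation than saline-treated mice. These 3 windows span 2000 bases, and the stretch of them printed below has 107 exon bases. The largest difference in OVA vs. saline, 17.3 points, was in the window of chr5:75639501-75640500, which reaches only the beginning of exon 10. The exon was not measured apart from the sequence around it. Over the 3 windows of chr5:75639501-75641500 the mean was 44.8% in saline-treated, 58.4% ± 2.73 (SD, n = 3) in OVA-induced and 58.2% ± 3.38 (SD, n = 4) in DSE-treated mice. In the window that begins at 75640001 the saline-treated mice had 41.7%, 45.9% and 43.1%, the OVA-induced mice 55.7%, 54.8% and 58.9%, and the DSE-treated mice 58.5%, 59.2%, 51.7% and 56.2%. All 7 OVA-exposed mice were above all 3 saline-treated mice in each of the 3 windows. That window differed by 13.0 points in OVA vs. saline (limma adjusted p = 0.0414) and by 13.2 points in DSE vs. saline (limma adjusted p = 0.0237). DSE vs. OVA differed by 0.256 points there, less than the spread between the mice of either group. The 3 windows were DMRs in OVA vs. saline without each mouse in turn.

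Windows that overlap the coding exons 15 and 16 also gained methylation in OVA-induced mice, and there the DSE-treated mice lay between the other groups. In the window of chr5:75647501-75648500 the saline-treated mice had 67.4%, 61.4% and 68.1%, the OVA-induced mice 76.6%, 79.3% and 79.2%, and the DSE-treated mice 74.5%, 73.7%, 73.5% and 72.2%. The 3 groups did not overlap. Pooled over mice, the difference was 12.4 points in OVA vs. saline (limma adjusted p = 0.0266), -4.83 points in DSE vs. OVA (limma adjusted p = 0.406, exact permutation p = 0.0571, the smallest possible) and 7.59 points in DSE vs. saline (limma adjusted p = 0.058). Its neighbour at 75648001 gave 11.8 points in OVA vs. saline, and the next windows of exons 16 and 17 were not DMRs, with differences of 0.589 and -0.389 points.

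Intron 2 changed in the same direction at a lower level. Over the 2 windows of chr5:75607501-75609000 the mean was 48.7% ± 3.88 (SD, n = 3) in saline-treated, 59.8% ± 2.79 (SD, n = 3) in OVA-induced and 57.7% ± 3.44 (SD, n = 4) in DSE-treated mice, and both windows were hyper methylated in OVA vs. saline. The OVA-induced and DSE-treated mice were all above the saline-treated mice in both windows. The limma adjusted p in OVA vs. saline was 0.0835 and 0.0753 for the windows, and the DMR call of both was lost without saline replicate 2, with 8.98 and 8.94 points, and that at 75607501 also without OVA replicate 2 (9.56) or OVA replicate 3 (9.86).

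A part of intron 7 was lower in the OVA-exposed mice. About 58 to 59 kb after the start site, at chr5:75632501-75634500, 3 windows were hypo methylated, the last of them in OVA vs. saline and the others in DSE vs. saline. In the window that begins at 75632501 the saline-treated mice had 81.3%, 78.4% and 76.8%, the OVA-induced mice 71.6%, 72.1% and 71.3%, and the DSE-treated mice 65.0%, 63.0%, 70.2% and 64.0%. The 3 groups did not overlap, with the DSE-treated mice lowest. Between the groups the pooled difference was -13.6 points in DSE vs. saline (limma adjusted p = 0.014), -7.18 points in OVA vs. saline (limma adjusted p = 0.0922) and -6.43 points in DSE vs. OVA (limma adjusted p = 0.411). The OVA vs. saline call at 75633501 was lost without saline replicate 1 (-9.08 points), saline replicate 2 (-9.69) or OVA replicate 1 (-7.91). The other windows of intron 7, about 49 to 52 kb after the start site, had no DMR, and those at 75626001 and 75626501 were higher by 6.44 and 6.12 points in OVA vs. saline, with all OVA-exposed mice above the saline-treated mice (limma adjusted p = 0.161 and 0.196). One stretch of each of these parts is shown with its CpG sites in capitals, as the 240 bases with the most CpG sites in the DMR (plus strand, GRCm38, a C57BL/6J reference, while the mice were BALB/c).
Kit intron 7, chr5:75632843-75633082: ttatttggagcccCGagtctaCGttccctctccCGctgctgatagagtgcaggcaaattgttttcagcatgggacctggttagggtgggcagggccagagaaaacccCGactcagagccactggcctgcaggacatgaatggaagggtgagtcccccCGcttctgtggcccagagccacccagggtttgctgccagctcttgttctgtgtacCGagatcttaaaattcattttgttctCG
Kit exon 10, chr5:75640426-75640665: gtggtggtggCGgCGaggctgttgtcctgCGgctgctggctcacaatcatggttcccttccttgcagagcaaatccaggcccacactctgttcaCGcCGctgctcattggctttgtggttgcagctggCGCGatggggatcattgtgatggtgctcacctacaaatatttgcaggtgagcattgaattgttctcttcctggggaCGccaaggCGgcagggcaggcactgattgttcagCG
Kit exon 15, chr5:75647634-75647873: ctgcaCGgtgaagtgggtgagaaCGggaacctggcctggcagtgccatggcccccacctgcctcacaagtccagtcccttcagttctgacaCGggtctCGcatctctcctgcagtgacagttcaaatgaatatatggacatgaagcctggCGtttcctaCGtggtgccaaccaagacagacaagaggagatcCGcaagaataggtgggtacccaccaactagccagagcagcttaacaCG
The stretch of intron 7 lies outside the exons and holds 7 CpG sites. That of exon 10 holds 10 CpG sites and 107 exon bases, and that of exon 15 holds 8 and 89 exon bases. The exon 15 stretch lies before 75648001 and most of the intron 7 stretch before 75633001, where the next windows begin. No earlier window of the table reaches these bases either, so they may have held few or no calls. The differences of their windows cannot be assigned to these stretches.

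Intron 1 held the Kit windows that were DMRs in DSE vs. OVA. The window of chr5:75579501-75580500 was a DMR both in OVA vs. saline, with 10.4 points, and in DSE vs. OVA, with -11.4 points. Its level was 69.9%, 66.2% and 62.2% in saline-treated, 77.4%, 72.1% and 79.4% in OVA-induced, and 72.2%, 61.3%, 58.7% and 64.8% in DSE-treated mice. The OVA-induced mice were all above the saline-treated mice, but DSE replicate 1 was above OVA replicate 2, so OVA-induced and DSE-treated mice overlapped. The limma adjusted p was 0.132 for OVA vs. saline, but 0.222 for DSE vs. OVA.

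The neighbours gave the same picture with more overlap. At 75579001 the difference was 11.5 points for OVA vs. saline, with -9.97 for DSE vs. OVA, and at 75580001 it was 8.75 and -14.0 points, where DSE replicate 1 had 88.5% and the other DSE-treated mice 67.2% to 73.2%. In OVA vs. saline the call at 75579501 was lost without saline replicate 3 (8.29 points), OVA replicate 1 (9.92) or OVA replicate 3 (8.84), and that at 75579001 without saline replicate 3 (6.71) or OVA replicate 1 (9.77). In DSE vs. OVA the call at 75579501 was lost without OVA replicate 3 (-9.81 points) or DSE replicate 3 (-9.67). Of all 180 windows, 2 gained methylation in OVA-induced mice and lost it with DSE by both DMR calls, this one and one in Mitf. Over the whole series 827 of 446336 windows did so. The opposite order was found in none of the 180 windows and in 546 of the 446336. With so small a share over all windows, finding none among 180 does not set these genes apart.
Kit intron 1, chr5:75579776-75580015: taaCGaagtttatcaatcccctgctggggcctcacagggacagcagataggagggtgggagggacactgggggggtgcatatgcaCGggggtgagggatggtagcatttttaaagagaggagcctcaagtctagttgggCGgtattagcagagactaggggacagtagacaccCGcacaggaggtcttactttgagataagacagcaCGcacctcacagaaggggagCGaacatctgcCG
This stretch lies within the window described and holds 7 CpG sites.

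One further Kit window stood at low depth. At chr5:75577501-75578500, with 23 to 60 calls per mouse, the pooled level was 21.6 points lower in OVA vs. saline, but the mice had 61.3%, 83.9% and 73.9% with saline and 20.7%, 55.6% and 68.2% with OVA and overlapped. Without OVA replicate 1 the difference was -10.4 points and no longer a DMR, and it was also lost without saline replicate 2 (-15.3), saline replicate 3 (-21.2) or OVA replicate 2 (-23.6). Over the whole locus, the mean of 46 windows was 56.4% ± 0.843 (SD, n = 3) in saline-treated, 59.6% ± 1.62 (SD, n = 3) in OVA-induced and 58.7% ± 0.358 (SD, n = 4) in DSE-treated mice.

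**Figure D3:**
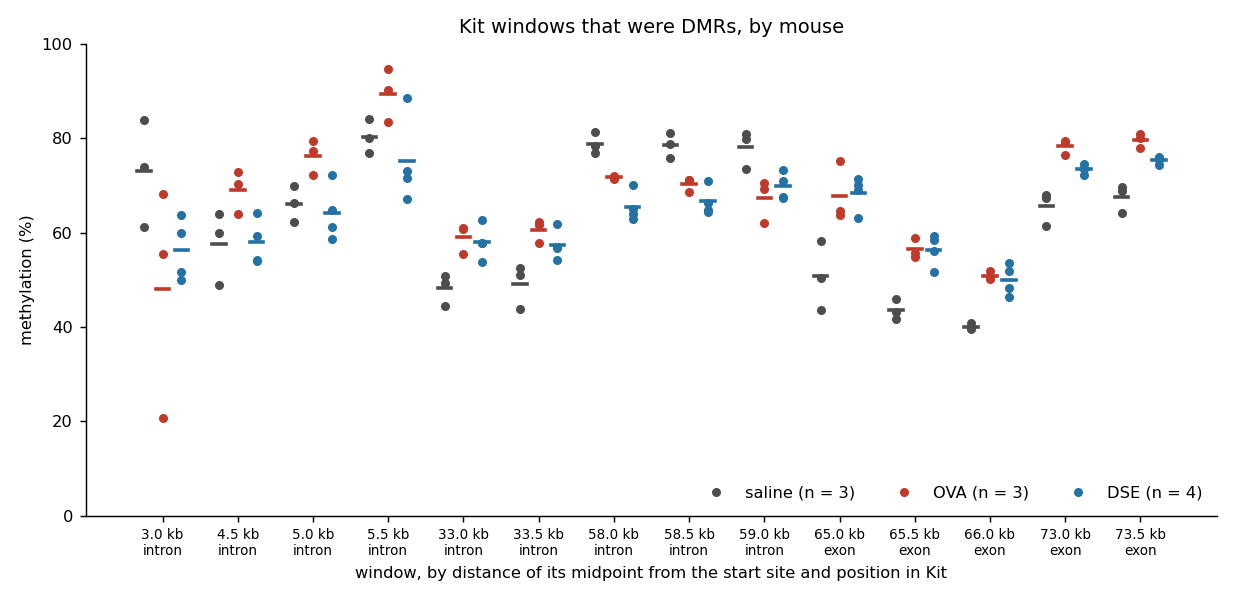
Methylation (%) of each mouse in the 14 Kit windows that were a DMR in any comparison, ordered by distance from the start site, with bars at the group means. The groups overlap in the windows at 3.0 to 5.5 kb except for OVA vs. saline at 5.0 kb, and the saline-treated mice lie apart from the OVA-induced mice in all windows from 33.0 kb on.

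Kitl (chr10:100015615-100100416, plus strand), the ligand gene, gained methylation in its introns while its promoter stayed unmethylated. The promoter mean was 1.15% ± 0.0828 (SD, n = 3) in saline-treated, 1.21% ± 0.208 (SD, n = 3) in OVA-induced and 1.25% ± 0.221 (SD, n = 4) in DSE-treated mice. In intron 1, at chr10:100031001-100032000, the saline-treated mice had 37.8%, 31.7% and 37.8%, the OVA-induced mice 42.6%, 52.5% and 52.9%, and the DSE-treated mice 50.5%, 51.7%, 50.1% and 51.4%. All 7 OVA-exposed mice were above the saline-treated mice. With calls pooled by group, the difference was 13.4 points in OVA vs. saline (limma adjusted p = 0.0509), 1.61 points in DSE vs. OVA (limma adjusted p = 0.934) and 15 points in DSE vs. saline (limma adjusted p = 0.0225).

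The 2 windows of intron 3 at chr10:100065001-100066500 rose likewise, by up to 12.9 points in OVA vs. saline and by up to 14.4 in DSE vs. saline. A second stretch of intron 1, chr10:100039501-100041000, was hyper methylated only by the DSE vs. saline call, with 59 to 112 calls per mouse and overlapping mice. No Kitl window was a DMR in DSE vs. OVA. The stretch with the most CpG sites of the first DMR, 11 of them, is shown because its window was higher in both OVA-exposed groups. The stretch may not have been measured at all. It lies past 100031500, the end of the window before, and no window begins there. The most calls in a mouse were 1485, 4209 and 2724 in the windows that begin at 100030001, 100030501 and 100031001. The middle window thus appears to hold the calls of both neighbours, which places those of the last window before the stretch.
Kitl intron 1, chr10:100031565-100031804: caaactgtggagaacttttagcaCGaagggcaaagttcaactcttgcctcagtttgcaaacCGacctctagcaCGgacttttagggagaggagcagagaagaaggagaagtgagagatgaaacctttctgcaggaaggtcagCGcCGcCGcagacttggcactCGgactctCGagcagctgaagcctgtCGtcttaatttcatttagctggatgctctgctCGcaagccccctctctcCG

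The 3 chains of FcεRI did not move together. Fcer1a (chr1:173221269-173227232, minus strand) was lower in OVA-exposed mice at its start, where 2 windows share the same calls. The saline-treated mice had 54.5%, 61.8% and 52.1%, the OVA-induced mice 48.3%, 45.7% and 46.0%, and the DSE-treated mice 45.9%, 35.2%, 51.2% and 48.0%. Every OVA-exposed mouse was below every saline-treated mouse, DSE replicate 3 by the least. The pooled difference was -9.24 points in OVA vs. saline, short of the 10 points of a DMR, and -11.2 in DSE vs. saline. The promoter mean was not called by limma in OVA vs. saline (adjusted p = 0.184) or DSE vs. saline (adjusted p = 0.0765), and the DMR call in DSE vs. saline was lost without saline replicate 2 (-8.46 points) or DSE replicate 2 (-8.04). The stretch below holds 3 of the 7 CpG sites of this region. As the 2 windows share the same calls, these calls lie where the windows overlap. The stretch lies outside that overlap, further into the gene, so the levels given were not measured on it.
Fcer1a start, chr1:173226537-173226776: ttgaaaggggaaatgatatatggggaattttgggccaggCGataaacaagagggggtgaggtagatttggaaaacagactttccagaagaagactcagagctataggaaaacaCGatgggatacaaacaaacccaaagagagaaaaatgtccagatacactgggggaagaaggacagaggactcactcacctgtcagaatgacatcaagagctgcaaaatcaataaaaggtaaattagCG

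The other Fcer1a DMR lay downstream, inside the olfactory receptor gene Olfr1404. At chr1:173216501-173217500 the OVA-induced mice had 89.8%, 91.7% and 88.0%, the DSE-treated mice 77.4%, 79.3%, 74.5% and 85.0%, and the saline-treated mice 90.2%, 86.6% and 84.0%. The DSE-treated mice were all below the OVA-induced mice, by -11.0 points pooled (limma adjusted p = 0.117), and the call was lost without DSE replicate 3 (-9.85).

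Ms4a2 (chr19:11615517-11623790, minus strand) had 1 DMR in OVA vs. saline, downstream of the gene at chr19:11613001-11614000. The saline-treated mice had 41.7%, 39.0% and 43.1%, the OVA-induced mice 32.4%, 27.4% and 22.2%, and the DSE-treated mice 37.3%, 36.0%, 37.3% and 34.7%. The 3 groups did not overlap and the DSE-treated mice lay between the others. Pooled over mice, the difference was -14.2 points in OVA vs. saline (limma adjusted p = 0.0392) and 9.43 points in DSE vs. OVA (limma adjusted p = 0.247). With 72 to 126 calls per mouse, the OVA vs. saline call was lost without saline replicate 3 (-13.1 points) or OVA replicate 3 (-11.8), where the adjusted p passed the limit.

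In the next window along, at chr19:11613501-11614500, the level was higher by 13.2 points in DSE vs. saline, the opposite direction. In the gene itself 2 windows at exons 5 and 6 share the same 32 to 137 calls per mouse. Their level went from 97.6% in saline-treated to 89.8% in OVA-induced mice, which limma called (adjusted p = 0.0281). The difference was under 10 points and the adjusted p of the likelihood ratio test was 0.0284. These shared calls count as 2 of the windows called by limma. The window nearest the Ms4a2 start site, with its midpoint at -1282 bp from it, had 66.3% ± 3.51 (SD, n = 3), 66.8% ± 2.73 (SD, n = 3) and 66.7% ± 3.29 (SD, n = 4) in the 3 groups. It showed no difference beyond the spread between mice.

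Fcer1g (chr1:171229572-171234349, minus strand) had no DMR in any comparison. As a mean over its 8 flanking windows the level was 73.1% ± 0.834 (SD, n = 3) in saline-treated, 75.5% ± 1.68 (SD, n = 3) in OVA-induced and 75.3% ± 1.8 (SD, n = 4) in DSE-treated mice. The OVA-induced mice overlapped with the saline-treated mice, and the difference of 2.38 ± 1.19 points (SE) was not called (limma adjusted p = 0.204).

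Among the mediator genes, Hdc (chr2:126593659-126624025, minus strand) held the window with the largest fall in OVA vs. saline apart from the shallow Kit window. At chr2:126601501-126602500, which overlaps exon 8, the saline-treated mice had 73.4%, 73.4% and 71.6%, the OVA-induced mice 56.4%, 50.7% and 49.4%, and the DSE-treated mice 57.3%, 52.2%, 57.3% and 54.6%. Every saline-treated mouse was above every OVA-exposed mouse. Between the groups the pooled difference was -20.3 points in OVA vs. saline (limma adjusted p = 0.0228), 2.91 in DSE vs. OVA (limma adjusted p = 0.78) and -17.4 in DSE vs. saline (limma adjusted p = 0.0109). The window held 1270 to 1803 calls per mouse, and the OVA vs. saline call held without each mouse in turn. The stretch shown is the one with the most CpG sites, 9, in the 1500 bases of this window and the one after it, and lies in the intron between exons 7 and 8.
Hdc intron, chr2:126602264-126602503: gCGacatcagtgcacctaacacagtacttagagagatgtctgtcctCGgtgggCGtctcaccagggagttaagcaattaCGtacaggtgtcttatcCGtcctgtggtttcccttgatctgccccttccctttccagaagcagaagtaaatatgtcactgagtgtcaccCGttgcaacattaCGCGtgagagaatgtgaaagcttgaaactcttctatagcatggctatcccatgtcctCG

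Elsewhere Hdc changed less. At its start site the 3 groups had overlapping levels, and the promoter mean of 4 windows was 30.6% ± 4.2 (SD, n = 3), 29.3% ± 1.57 (SD, n = 3) and 25.1% ± 4.11 (SD, n = 4). In intron 2, at chr2:126607501-126608500, methylation was 11.0 points higher in OVA vs. saline (limma adjusted p = 0.0708). In intron 10, at chr2:126596001-126597000, with 27 to 78 calls, the OVA-induced mice had 96.4%, 97.4% and 100% and the DSE-treated mice 89.7%, 83.9%, 92.6% and 87.2%. The groups did not overlap and the pooled difference was -10.4 points (limma adjusted p = 0.116). The call was lost without OVA replicate 3 (-9.14) or DSE replicate 2 (-9.16).

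Chymase showed the largest change of a locus mean. The 3 windows of Cma1 (chr14:55941451-55944675, minus strand) lie at its last exon and just downstream. The window nearest the start site, chr14:55940501-55941500, had 8.15%, 11.0% and 12.6% in the saline-treated mice, 11.6%, 17.4% and 14.8% in the OVA-induced mice and 19.0%, 19.1%, 18.2% and 16.8% in the DSE-treated mice. The OVA-induced mice overlapped with both other groups, the DSE-treated mice were all above the saline-treated mice, and limma called DSE vs. saline (7.58 points, adjusted p = 0.0309). At chr14:55939501-55940500 the saline-treated mice had 31.8%, 22.2% and 26.8%, the OVA-induced mice 42.5%, 45.1% and 53.5%, and the DSE-treated mice 36.9%, 41.3%, 46.7% and 42.9%. All OVA-exposed mice were above all saline-treated mice. With calls pooled by group, the difference was 19.5 points in OVA vs. saline (limma adjusted p = 0.0313), -5.36 in DSE vs. OVA (limma adjusted p = 0.755) and 14.1 in DSE vs. saline (limma adjusted p = 0.0341). The OVA vs. saline call held without each mouse in turn. The stretch with the most CpG sites, 5, is shown, and no window covered the Cma1 start site.
Cma1 downstream, chr14:55940296-55940535: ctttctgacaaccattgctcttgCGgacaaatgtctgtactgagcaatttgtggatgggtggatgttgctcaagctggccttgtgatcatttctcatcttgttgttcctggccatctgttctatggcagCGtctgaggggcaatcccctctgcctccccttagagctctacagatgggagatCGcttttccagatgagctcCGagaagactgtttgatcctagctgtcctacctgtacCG

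Cpa3 (chr3:20215616-20242209, minus strand) and Tpsb2 (chr17:25366308-25368096, plus strand) had no DMR in any comparison. In Cpa3 the 4 windows at exons 7 and 8 and intron 7 were near full methylation, from 86.6% to 93.6% as group means. The Cpa3 window nearest to the start site, 12680 bp into the gene at exon 4, had 66% ± 7.11 (SD, n = 3) in saline-treated, 67.4% ± 9.43 (SD, n = 3) in OVA-induced and 55.1% ± 3.9 (SD, n = 4) in DSE-treated mice. Its pooled difference of -13.2 points in DSE vs. OVA was not a DMR, and the mice overlapped. The 2 Tpsb2 windows upstream of the gene share their calls and had 41.2% ± 9.61 (SD, n = 3), 50.7% ± 7.12 (SD, n = 3) and 44.9% ± 5.70 (SD, n = 4), with overlapping mice.

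Mitf (chr6:97807002-98021360, plus strand) held 4 of the 8 DMRs of DSE vs. OVA. At the start of its longest transcript the level was about 1%, as given above. In intron 1, at chr6:97881501-97882500, the saline-treated mice had 56.4%, 55.1% and 44.8%, the OVA-induced mice 77.6%, 63.8% and 87.5%, and the DSE-treated mice 80.5%, 71.9%, 67.6% and 73.7%. All OVA-exposed mice were above the saline-treated mice. The pooled difference was 22.0 points in OVA vs. saline (limma adjusted p = 0.0666) and 20.8 points in DSE vs. saline (limma adjusted p = 0.0733), from 29 to 49 calls per mouse. The OVA vs. saline call was lost without saline replicate 3 (19.3), OVA replicate 1 (20.4) or OVA replicate 3 (17.8), where the adjusted p rose above 0.01.
Mitf intron 1, chr6:97881512-97881751: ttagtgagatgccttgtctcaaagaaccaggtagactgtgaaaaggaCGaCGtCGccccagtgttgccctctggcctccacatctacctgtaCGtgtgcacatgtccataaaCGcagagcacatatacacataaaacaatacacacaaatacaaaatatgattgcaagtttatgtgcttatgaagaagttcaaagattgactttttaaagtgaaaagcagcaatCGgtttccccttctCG
This stretch of the DMR holds 7 CpG sites. The windows of the DMR, which begin at 97881501 and 97882001, share the same calls, so these calls lie where the windows overlap. The stretch lies outside that overlap, so the levels given were not measured on it.

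In Mitf intron 2, at chr6:97962501-97963500, the OVA-induced mice stood apart from both other groups. The saline-treated mice had 60.0%, 75.4% and 65.6%, the OVA-induced mice 78.9%, 89.5% and 81.1%, and the DSE-treated mice 67.7%, 75.4%, 60.1% and 68.3%. Pooled over mice, the difference was 16.4 points in OVA vs. saline (limma adjusted p = 0.0904) and -16.5 points in DSE vs. OVA (limma adjusted p = 0.244), with 38 to 164 calls per mouse. Both calls were lost without OVA replicate 2 (12.9 and -12.9 points), and that of OVA vs. saline also without saline replicate 1 (14.2) or saline replicate 3 (14.9).

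The remaining Mitf DMRs of DSE vs. OVA were 2 windows of intron 1 at chr6:97828501-97830000 and 1 of intron 2 at chr6:97951501-97952500. In the first the group means were 40.3% ± 5.97, 39.7% ± 7.33 and 24.5% ± 2.21 (SD), so that the DSE-treated mice were below both other groups and OVA-induced and saline-treated mice were alike within their spread. Between the groups the pooled difference was -15.3 points in DSE vs. OVA (limma adjusted p = 0.132), and limma called it in DSE vs. saline (adjusted p = 0.0325). The single window of the 10 genes that limma called in DSE vs. OVA was the neighbour of the other, at 97952001, with 86.4% in saline-treated, 91.1% in OVA-induced mice and 81.8% in those treated with DSE (adjusted p = 0.0342). It is named after its values were seen.

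**Figure D4:**
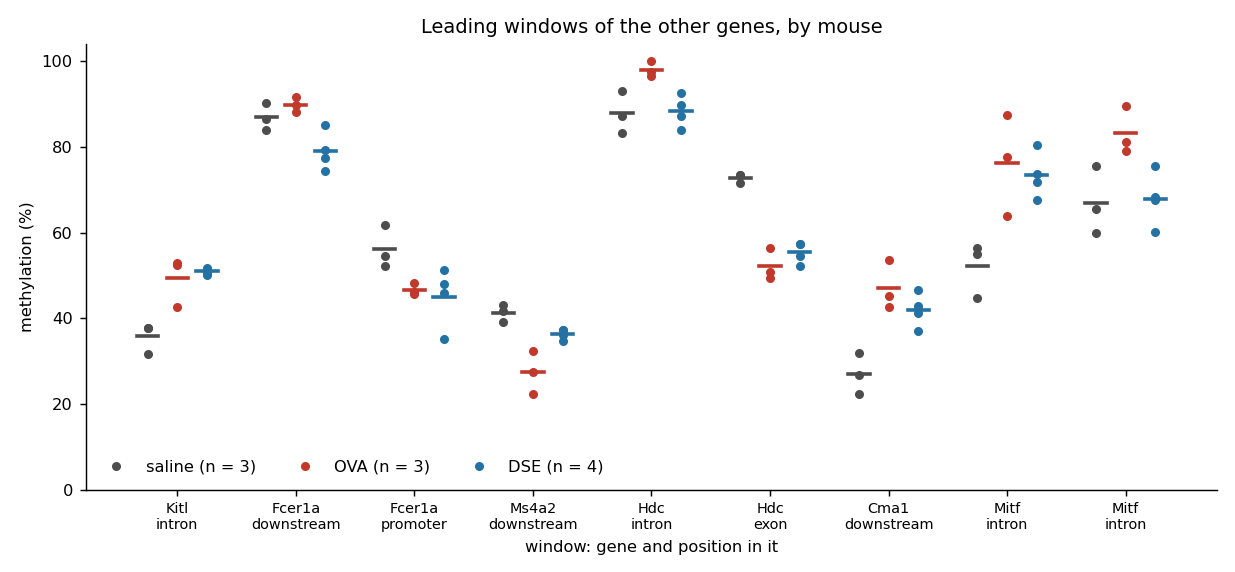
Methylation (%) of each mouse in 9 windows of the other genes: the leading DMRs of the comparisons of OVA with saline and DSE with OVA, and the Fcer1a start-site window, with bars at the group means. Saline-treated mice lie apart from OVA-induced mice in Kitl intron, Fcer1a promoter, Ms4a2, Hdc, Cma1 and Mitf, and the DSE-treated mice lie apart from the OVA-induced mice in the Fcer1a downstream, Ms4a2, Hdc intron and the second Mitf window.

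As means over all windows of a locus, 3 of the 10 genes differed in OVA vs. saline, all upwards. Each mouse had 1 value per gene, and limma was fitted over 32826 genes, of which 12.4% were called in OVA vs. saline, 0.0183% for DSE vs. OVA and 18.1% in DSE vs. saline. Cma1 rose from 19.1% ± 2.16 (SD, n = 3) to 31.6% ± 3.22 (SD, n = 3), a difference of 12.6 ± 1.75 points (SE, limma adjusted p = 0.00625). Kitl rose from 38.7% ± 1.13 (SD, n = 3) to 43.3% ± 1.54 (SD, n = 3), by 4.6 ± 1.09 points (limma adjusted p = 0.027). Kit rose by 3.19 ± 0.876 points (limma adjusted p = 0.0424).

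In DSE vs. saline Cma1 (11.3 ± 1.64 points, limma adjusted p = 0.00441) and Kitl (5.74 ± 1.02 points, limma adjusted p = 0.00824) were called, and Kit was not (2.32 ± 0.819 points, limma adjusted p = 0.0735). No locus mean of the 10 genes was called in DSE vs. OVA, where the differences ran from -6.02 points in Tpsb2 to 1.24 in Ms4a2. The nearest to a difference there was Mitf, with all DSE-treated mice below all OVA-induced mice (-2.22 ± 0.942 points, limma adjusted p = 0.52). The Cma1 call held without each mouse in turn. That of Kit was lost without OVA replicate 3 (2.34 points, limma adjusted p = 0.13), and equally without any other mouse but OVA replicate 1, with adjusted p between 0.0521 and 0.13. That of Kitl was lost without saline replicate 1 or 2 or OVA replicate 2 or 3, with adjusted p between 0.0657 and 0.0944. With windows weighted by their calls, which lets the deep promoter windows count most, the difference in OVA vs. saline was 0.0162 points for Kit and 2.29 for Kitl, and neither was called. In DSE vs. OVA the same weighting gave 2 calls, Cpa3 with -9.75 points (limma adjusted p = 0.00101) and Kitl with 7.28 points (limma adjusted p = 0.0159). The share of all genes called with this weighting is not given here, and that of the unweighted fit cannot stand for it. The unweighted differences were -3.42 and 1.15 points. Each mouse was weighted by its own calls, so differences in depth between mice enter these means. The Cpa3 windows at exon 4 held 24 to 595 calls per mouse, and neither gene had a DMR in DSE vs. OVA. The part of depth in these 2 calls was not tested.

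Ordered by the mean of saline-treated mice, the loci ran from Cma1 and Kitl through Tpsb2 (51.0%), Hdc (51.5%), Kit (56.4%), Ms4a2 (57.5%) and Mitf (60.5%) to Fcer1g (73.1%), Fcer1a (73.2%) and Cpa3 (82.5%). The saline-treated mice overlapped between Tpsb2 and Hdc, between Kit and Ms4a2, and between Fcer1g and Fcer1a, so these neighbours do not differ beyond their spread. Promoter means could be formed for 6 of the 10 genes and none was called in any comparison, where 6.82% of 24719 genes were called in OVA vs. saline, 1.33% for DSE vs. OVA and 14.9% in DSE vs. saline.

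**Figure D5:**
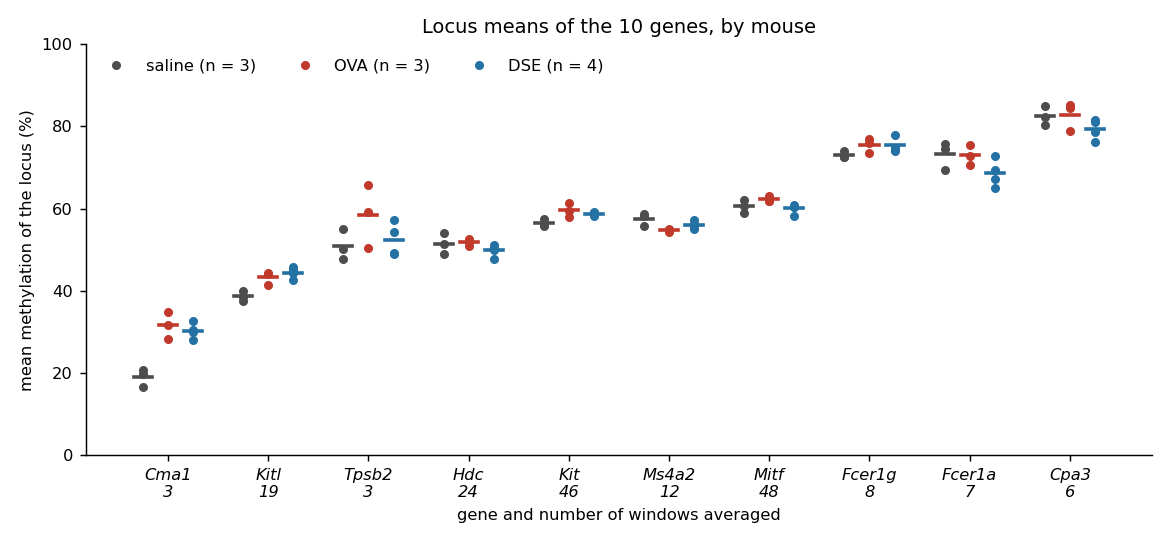
Mean methylation (%) over the windows of each locus, for each mouse of the 3 groups, with bars at the group means and genes in the order of the saline mean (number of windows under each name). Cma1, Kitl and Kit are higher in the OVA-induced mice than in all saline-treated mice, and of the other loci Tpsb2 has the largest difference, 7.46 points with overlapping mice.

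Other genes of the pathway were read from lists chosen in the same way. Of 20 genes that carry the signal of the IgE receptor, such as the kinases Lyn and Syk, 619 windows were tested in OVA vs. saline, and 28 (4.52%) were hyper and 71 (11.5%) hypo methylated, where 4.75% and 2.56% of all windows were, the reverse of the balance at the 10 genes. Their promoter means were lower in 7 of 18 genes by the limma call, where 2.59% of all promoters were, and none was higher, where 4.24% were. Syk, the kinase next to the receptor, had 39.1%, 32.4% and 31.9% in the 3 groups (OVA vs. saline adjusted p = 0.0287), and the exchange factor Vav1 48.5%, 37.3% and 37.2% (adjusted p = 0.0316). The genes of this list with the most DMRs were the phospholipase gene Plcg2, with 5 hyper and 8 hypo methylated windows, the adaptor Grb2 (0 and 10) and the kinase subunit Pik3cd (5 and 5). In DSE vs. OVA 7 windows (1.13%) of the list were hyper and 4 (0.644%) hypo methylated, near the 0.898% and 0.725% of all windows, and no promoter mean was called.

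Of 20 other mast cell genes, 16 of 214 windows (7.48%) were hyper and 7 (3.27%) hypo methylated in OVA vs. saline, beside 4.75% and 2.56% of all windows, and none was a DMR in DSE vs. OVA. Gata2, a transcription factor that mast cells need, held 10 of the hyper methylated windows, and its promoter mean was 8.35% in saline-treated, 10.5% in OVA-induced mice and 10.3% in those treated with DSE (adjusted p = 0.0429 in OVA vs. saline). The other called promoter of the list was lower: Csf2rb, a receptor chain for cytokines that also has a close paralog, had 24.7%, 16.7% and 19.4% in the 3 groups (adjusted p = 0.0482). The proteoglycan gene Srgn had 4 hyper and 3 hypo methylated windows.

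Markers of other lung cells moved in the same mice. Averaged per mouse over the promoters of 9 of 10 leukocyte genes, the level was 55.1% to 57.5% in saline-treated, 43.3% to 48.2% in OVA-induced and 43.9% to 47.2% in DSE-treated mice, and 5 of the 9 were called lower in OVA vs. saline, as were 8 for DSE vs. saline, where 2.59% and 3.53% of all promoters were. Eosinophil promoters (7 genes) went from 47.5% to 49.6% in saline-treated mice to 39.3% to 44.4% in OVA-induced and 40.5% to 44.6% in DSE-treated mice, with 1 called lower in OVA vs. saline. T cell promoters (7 genes) had 54.9% to 63.2%, 51.0% to 53.0% and 51.4% to 57.2%, with 1 called lower. Endothelial promoters (7 genes) had 20.6% to 23.4%, 23.7% to 26.1% and 22.3% to 24.4%, with 2 called higher in OVA vs. saline, where 4.24% of all promoters were, and those of lung epithelium (7 genes) had 28.2% to 28.7%, 29.5% to 31.1% and 30.8% to 32.2%, with none called in OVA vs. saline. No promoter of these lists was called in DSE vs. OVA. The part of the cell mixture in the differences at the 10 genes was not tested.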

How the data were processed

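Methyl-seq was analysed from 10 lung samples (3 saline, 3 OVA, 4 DSE), grouped by their titles. Per the labels and the study's methods, the authors trimmed reads with cutadapt 1.10, aligned them to mm10 with Bismark 0.19.0 and tiled the calls with methylKit 1.0.0, by the submitters' processing notes, and the study's methods give other versions. The deposited table holds counts of CpG calls, methylated and unmethylated, per window and mouse, not normalized. Summed over its overlapping windows a mouse had 306656737 to 410836272 calls, in which most calls count more than once. With windows counted once it had 153328794 to 205414739 calls. Calls were not collapsed by molecular identifiers, so intervals cover counting error only.

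Windows were assigned to genes by the RefSeq annotation of GRCm38.p6. A logistic model of the calls was compared by a likelihood ratio test over all windows, with Benjamini-Hochberg adjustment, and it takes the calls as independent. limma 3.58.1 (R 4.3.3) was fitted to M-values with a pseudocount of 1, and to locus means (at least 3 windows) and promoter means (windows within 1000 bp of a start site). These limma fits take the mouse as the unit. On 20000 simulated windows for OVA vs. saline, of which 200 were changed by 25 points, the likelihood ratio test recovered 96.5% and called 112 unchanged windows, limma 80.5% and 10, and the F test 0% and 0.

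The windows named are those nearest each start site, the DMR with the largest difference per gene for the comparisons OVA vs. saline and DSE vs. OVA, and for Kit every DMR. The window nearest the Fcer1g start site is not reported here. The genes and lists were chosen with earlier results of these data known. The labels do not tie mice to a cage, a day or a batch, so the limma and permutation p-values measure only the spread between these samples. The likelihood ratio p of a DMR measures the counting error of the pooled calls and not the spread between mice. Mice of 1 group differed by more than sampling noise, with a mean chi-square of 2.64 to 3.76 per window, so no library was held to be a copy of another. Alternatives covered the minimum of calls, the test, the size of the difference, window overlap, flanks, weighting, single mice and the replicate block. The analysis used Python 3.11.15, numpy 2.4.6, scipy 1.17.1 and pandas 2.3.3. The paper's expression data were not used here.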

Additional observations from a re-analysis of the deposited data

How the results depend on the processing

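Of 24, 8 and 26 DMRs at the 10 genes in OVA vs. saline, DSE vs. OVA and DSE vs. saline, the F test left 0, 0 and 0, a difference of at least 20 points 4, 0 and 2, windows that do not overlap 10, 3 and 11, and limma with an adjusted p under 0.01 and 10 points 0, 0 and 0. The F test recovered 0% of the planted changes on simulated windows, so its counts of 0 do not tell whether these windows changed. With limma at an adjusted p under 0.05 and no limit on the difference, 11, 1 and 18 windows were called. Leaving out each mouse gave 18 to 27, 6 to 12 and 19 to 27 DMRs. The lowest counts came without OVA replicate 3, DSE replicate 3 and DSE replicate 2, and the highest of DSE vs. OVA without OVA replicate 2. Windows in no other gene and windows with calls of their own, both added after seeing the data, gave 24, 7 and 26 and 23, 8 and 23.

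Of the locus means, 3, 0 and 2 of the 10 genes were called. Weighting by calls gave 1, 2 and 7, a minimum of 50 calls gave 4 in DSE vs. saline, and the span without flanks gave 1 in DSE vs. saline. The shares of all genes called under these settings are not given here. Leaving out each mouse gave 1 to 4, 0 to 0 and 2 to 3. In DSE vs. saline the Mitf locus mean reversed with weighting by calls, from -0.478 to 3.26 points. The promoter means had 0 called under every alternative run. In 71 of 744 refits of a member's mean the sign changed with neither value past the threshold. The causes were not tested.

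With the replicate block, 24, 7 and 23 DMRs and 2, 0 and 3 locus means were called, and the Kit locus mean in OVA vs. saline had an adjusted p of 0.0997. Same-numbered mice did not deviate together, with correlations from -0.0273 to 0.0785, so the mice share only a number. Depth limits single windows with 20 to 60 calls, such as those of Kit at 75577501 and Mitf at 97881501.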

Other observations

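Several stretches of the 10 genes moved without reaching the 10 points of a DMR. In Mitf intron 1, about 41 kb after the start site, the 2 windows of chr6:97847501-97849000 had 49.4% and 43.7% in mice given saline, 59.1% and 52.9% after OVA and 57.9% and 53.1% after OVA with DSE. All 7 OVA-exposed mice were above all saline-treated mice in both, and limma called the second in DSE vs. saline (adjusted p = 0.0463). In Kit intron 1, 25014 bp after the start site, the level went from 50.2% to 57.5% and 58.3% with the same separation, from 1226 to 1833 calls per mouse. In Kitl intron 1, at chr10:100038501-100039500, it went from 53.6% to 63.7% and 62.4%.

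In another part of Hdc, a window that overlaps an exon was lower in OVA-exposed mice than in saline-treated mice, without a limma call. At exon 3, chr2:126606501-126607500, the 3 groups did not overlap, with 65.7% after saline, 61.7% after OVA and 57.7% after OVA with DSE, though limma called none of the comparisons (adjusted p = 0.384, 0.68 and 0.0746). The next window of the same exon went the other way, from 23.1% to 30.1% and 29.3%, with overlapping mice. These stretches were picked after their values were seen.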
